A study of Mus musculus with 6 samples.

Results

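Hoxa5, a homeobox gene on chromosome 6, was followed here through the CpG sites of its promoter and gene in 6 kidney DNA methylation libraries. Its sites were taken by position alone: every CpG between 52151501 and 52155401 (genome build mm9) that was read at least 10 times in each of the 6 libraries. This gave 64 sites of 943307 that met the same depth across the genome. Another 14 positions in the span had reads but fell short of 10 in at least 1 library.

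The assay was reduced representation bisulfite sequencing: the enzyme MspI cuts DNA at CCGG, short fragments are kept, and bisulfite separates methylated from unmethylated cytosines. All libraries came from kidney cortex and outer medulla of male wild-type C57BL/6J mice. In the saline group (2 libraries) the left ureter had been tied for 7 days, a model of renal fibrosis called unilateral ureteral obstruction or UUO, with daily saline. In the 5AZA group (2 libraries) obstruction of the same length was combined with the drug labelled 5AZA, injected into the abdomen at 1 mg/kg per day. Of the sham group, sham 1 was the control of the obstruction experiment, and sham 2 belonged to a kidney ischemia/reperfusion experiment, with 48 hours in its name. Whether each library is a mouse of its own is not stated in the labels. The p-values therefore cover only the spread between these 6 libraries, which may be technical.

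Hoxa5 encodes a transcription factor of the HOXA cluster, a row of genes that pattern the body axis and stay active in many adult tissues. Dense methylation of a CpG-rich promoter generally goes with a silent gene, and 5-azacytidine-type drugs trap the DNA methyltransferases so that methylation is lost as cells divide. The series title names methylation of HOXA5 ahead of JAG1 and NOTCH signalling, which the comparisons of Hoxa5 bear on. RNA and protein are not analysed here.

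The 250 bases upstream of the Hoxa5 start of transcription are shown because 7 of the measured sites lie in them, the nearest to the start of all the sites. The sequence is that of RefSeq on GRCm38.p6 (chr6:52204588-52204837, minus strand), written 5′ to 3′. Capitals mark the measured CpGs, and the whole CCGG where a measured CpG lies in an MspI site.

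Hoxa5 promoter: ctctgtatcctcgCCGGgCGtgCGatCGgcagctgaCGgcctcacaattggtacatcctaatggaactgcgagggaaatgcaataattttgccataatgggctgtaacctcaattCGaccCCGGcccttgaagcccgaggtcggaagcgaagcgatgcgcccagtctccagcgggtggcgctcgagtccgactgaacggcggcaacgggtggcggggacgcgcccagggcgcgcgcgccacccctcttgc

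This stretch holds 28 CpGs, 2 CCGG sites and 63.6% G and C. Over 300 bases, with 50 bases past the start added, it had 29 CpGs, a number that 12.93% of 32851 RefSeq promoters reached or passed, and 32.58% had at least as many CCGG sites. The 21 CpGs left in lower case, which include all those closest to the start, were not read 10 times in every library or not read at all. The sequence fitted 1 place among the measured positions of chromosome 6 by the spacing of its CpGs, with all 7 shared sites on CpGs, which put the start of transcription at 52154586 on mm9 (minus strand). Distances below are counted from there. Exons and introns of the gene were not used here, since no mm9 annotation was at hand.

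The 64 sites lay in 3 patches. The upstream patch had 9 sites, from 128 to 301 bases before the start. The downstream patch had 52 sites, from 287 to 740 bases after it, and 3 more sites lay 1596 to 1789 bases after it, within the RefSeq gene length of 2834 bases. Each site was covered by 13 to 132 reads per library, with a median of 31 reads in sham 2 and of 57 to 67 in the other libraries. Sites in 1 patch share fragments and reads and are not independent measurements.

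Both libraries of obstructed kidney with saline were more methylated over Hoxa5 than both sham libraries, and both libraries of obstructed kidney with 5AZA were close to sham. Averaged over the 64 sites, saline 1 had a methylation level of 33.8% and saline 2 of 39.9%, sham 1 of 24.1% and sham 2 of 19.9%, 5AZA 1 of 24.9% and 5AZA 2 of 24.2%. The saline libraries thus did not overlap with any other library, while 5AZA lay less than 1 point above sham 1. As group means (± SD, n = 2 each), saline was at 36.8% ± 4.31, sham at 22.0% ± 2.95 and 5AZA at 24.6% ± 0.455. Saline was 14.8 percentage points above sham, 5AZA was 12.3 points below saline (a signed difference of -12.3), and 5AZA was 2.53 points above sham. Over all 943307 sites of the genome the same group differences were 1.61, -2.04 and -0.432 points. An exact two-sided permutation test over the libraries gave p = 0.33 for each of the 3 comparisons, the smallest p that 2 libraries against 2 can give. Both comparisons with saline share the saline libraries, so that these differences are not independent of each other. In whole tissue, a change in the mix of cell types and a change of methylation within cells cannot be told apart.

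**Figure D1:**
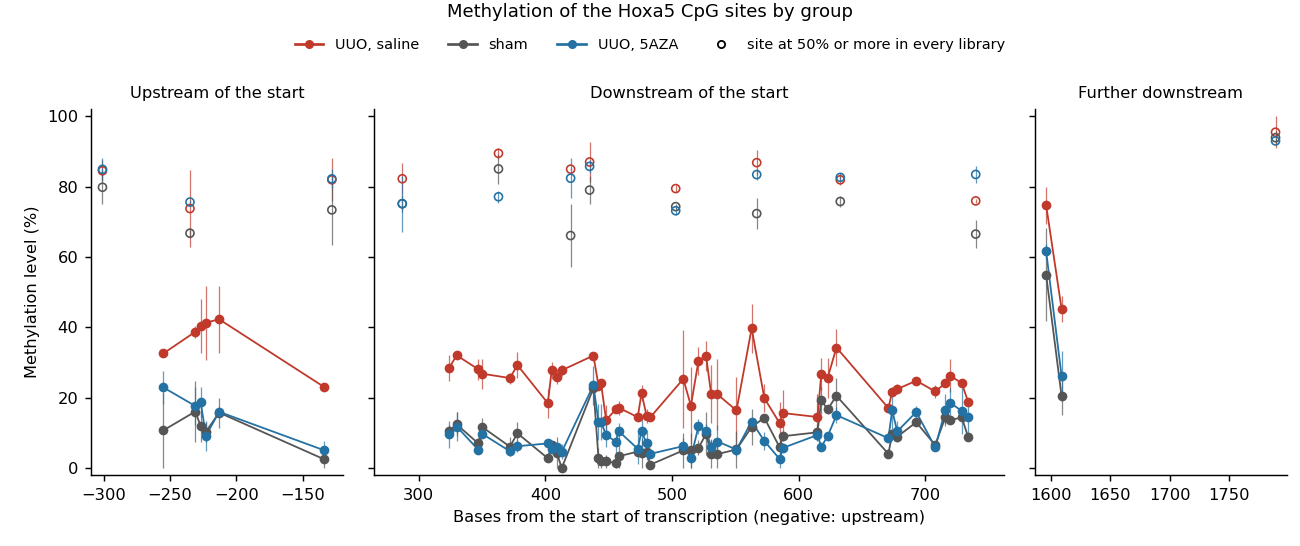
Methylation level (%) of each of the 64 Hoxa5 CpG sites against its distance in bases from the start of transcription, one panel per patch. Points are the mean of the 2 libraries of a group and vertical lines join both libraries; open circles are the sites at 50% or more in every library, and the red saline points lie above the grey sham points at all 64 sites.

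Sites of very different level stood side by side. At 12 of the 64 sites every library was at 50% or more, and the other 52 were mostly low outside the saline libraries. This split was made after the levels were seen. The 12 high sites averaged 82.1% and 85.2% in saline, 78.3% and 73.0% in sham, and 80.1% and 83.0% in 5AZA. The split rests on the lowest library of each site. Of these lowest values, the nearest to 50% were 57.1% inside the line and 41.7% outside it. Both were in sham 2, at the sites 420 and 1596 bases downstream. Single libraries came closer at the other sites, with 49.0% in saline 1 at the site 1609 bases downstream. Saline 2 had 51.9% at the sites 213 and 223 bases upstream. In the promoter sequence above, both measured CCGG sites (128 and 235 bases upstream) were among the high sites, and none of the 5 other measured CpGs was. Per the labels' protocols, MspI fragments were end-repaired with a mix that held methylated dCTP. The part of this step in the levels of the high sites was not tested, and results are given below with and without these sites.

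The 52 other sites carried the larger difference between saline and sham. Their average was 22.6% in saline 1 and 29.4% in saline 2, against 11.6% in sham 1, 7.69% in sham 2, 12.1% in 5AZA 1 and 10.7% in 5AZA 2. No sham or 5AZA library reached the level of the lower saline library. Saline was 16.4 points above sham and 5AZA was 14.6 points below saline (signed difference -14.6), whereas at the 12 high sites the same differences were 7.95 and -2.06 points. At the high sites 5AZA 2 lay between the saline libraries and 5AZA 1 below both, and 5AZA was 5.89 points above sham. Whether the high and the other sites differ in their response was not tested.

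The upstream sites showed the widest gap. Their 6 lower sites averaged 31.7% and 41.1% in saline, 11.8% and 10.7% in sham, and 17.1% and 12.7% in 5AZA, so that saline lay 25.2 points above sham and the signed difference of 5AZA from saline was -21.5 points. The 44 lower sites of the downstream patch averaged 19.7% and 26.4% in saline, 9.98% and 6.34% in sham, and 9.81% and 9.08% in 5AZA. There saline was 14.9 points above sham and 5AZA differed from saline by -13.6 points. As means over sites, both 5AZA libraries were above both sham libraries upstream and within the sham range downstream, but neither order held for methylated reads over all reads. There 5AZA 2 (12.1%) was below sham 1 (13.5%) upstream, and 5AZA 1 (9.70%) was above sham 1 (9.38%) downstream. The 3 far sites averaged 72.8% and 70.8% in saline, 62.0% and 50.8% in sham, and 63.2% and 57.3% in 5AZA.

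**Figure D2:**
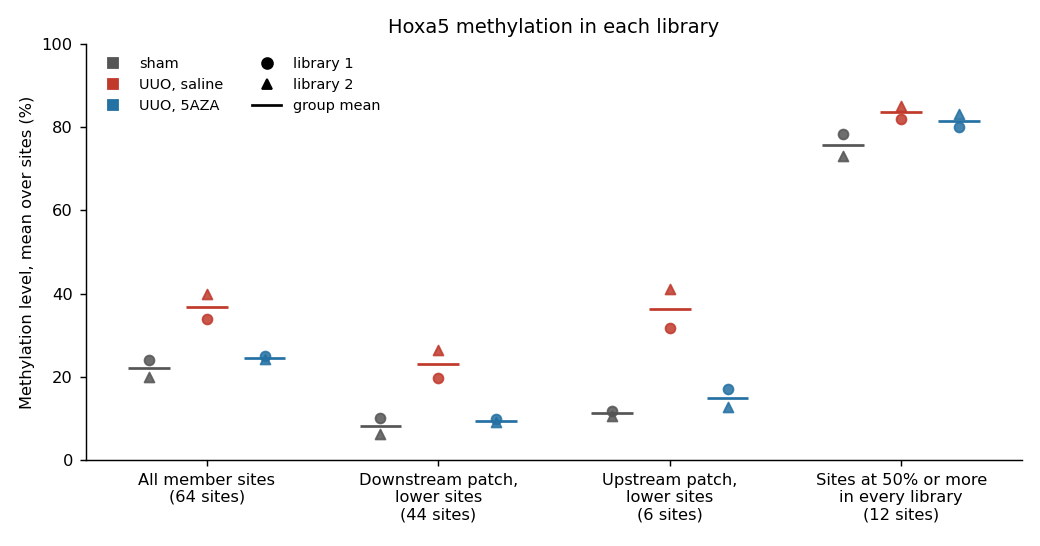
Mean methylation level (%) of sets of Hoxa5 sites in each of the 6 libraries; circles are library 1 and triangles library 2 of a group, and horizontal lines are group means. The saline libraries lie above the sham and 5AZA libraries in the 3 sets on the left, and at the 12 high sites on the right 5AZA 2 (83.0%) falls between the saline libraries and 5AZA 1 (80.1%) below them.

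Site by site, the sign of the difference was nearly uniform. The saline mean was above the sham mean at all 64 sites, by 1.56 to 31.0 points with a median of 13.8. Over all 943307 sites of the genome the median was 0.806 points, and the saline mean was above the sham mean at 573237. At 52 of the 64 sites both saline libraries were above both sham libraries, where 22.4% of all sites of the genome were. Of the 12 exceptions, 6 were high sites and 6 were other sites. Among the 68561 sites of the genome with a mean level of 5 to 40%, in which most of the 52 lower Hoxa5 sites fall, the share was 35.3%. With sham 1 as the only control, both saline libraries were above it at 55 of the 64 sites, where 32.7% of all sites were.

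The 5AZA mean was below the saline mean at 59 sites, with a median signed difference of -11.1 points. Over the genome it was below the saline mean at 586317 of 943307 sites. Both 5AZA libraries were below both saline libraries at 47 of the 64 sites, where 26.0% of all sites of the genome were, and 33.2% of sites with a mean level of 5 to 40%. Of these 47 sites, 45 were among the 52 lower sites and 2 were high sites. Against sham, both 5AZA libraries were higher at 19 of the 64 sites, where 13.6% of all sites were, and lower at 7, where 15.6% of all sites were. The 5AZA mean was above the sham mean at 42 sites and below it at 22. Over the genome these counts were 444283 and 433243 of 943307.

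**Figure D3:**
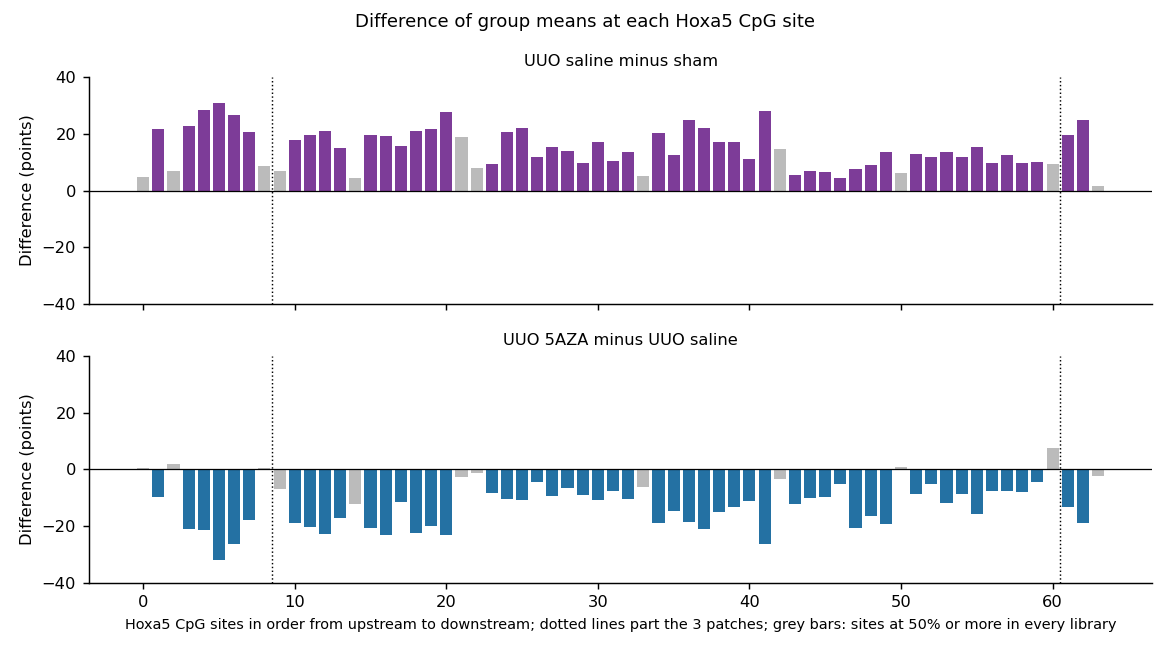
Difference between group means in percentage points at each Hoxa5 site, in order from upstream to downstream, for saline minus sham (top) and 5AZA minus saline (bottom). Grey bars are the 12 sites at 50% or more in every library and dotted lines part the 3 patches; every bar in the top panel is positive, and 59 of 64 in the bottom panel are negative.

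The libraries of a group also differed among themselves. Saline 2 was above saline 1 at 52 of the 64 sites, and at 420660 of the 943307 sites of the genome. Sham 2 was below sham 1 at 47 of the 64, and at 462525 over the genome. Sham 2, the least covered library at these sites, was listed at 0 methylated reads at 15 sites and sham 1 at 2. Over the genome the counts were 331663 and 191891 of 943307, which are larger shares than at Hoxa5. Saline 1, the lower of the saline libraries, was above sham 1, the higher of the sham libraries, at 57 of the 64 sites. Over the genome saline 1 was above sham 1 at 466198 of 943307 sites.

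The widest differences lay upstream of the start. Among the 53 sites with at least 20 reads in every library, the site 223 bases upstream (position 52154809) had the widest difference in both comparisons. Its level was 30.8% and 51.9% in saline, 13.1% and 7.50% in sham, and 13.5% and 4.88% in 5AZA, on 27 to 61 reads. Saline was 31.0 points above sham and the signed difference of 5AZA from saline was -32.1 points. It is the last of the 3 CpGs that directly follow the first CCGG in the printed sequence.

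Its neighbours had nearly the same pattern. The site 227 bases upstream (52154813) was at 32.7% and 48.1% in saline, 16.4% and 7.50% in sham, and 23.1% and 14.6% in 5AZA. The site 213 bases upstream (52154799) was at 32.7% and 51.9% in saline, 11.5% and 20.0% in sham, and 17.3% and 14.6% in 5AZA. At both, the saline libraries were above the 4 others. These 3 sites lie close together and had equal read counts in every library, so that they share reads.

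Further into the gene, the site 521 bases downstream (52154065) was at 26.5% and 34.5% in saline, 7.89% and 3.57% in sham, and 9.72% and 14.0% in 5AZA. The site 1609 bases downstream (52152977) stood at a higher level throughout, with 49.0% and 41.4% in saline, 25.8% and 15.0% in sham, and 33.3% and 18.9% in 5AZA. At both, saline and sham did not overlap, and they differed by 24.7 and 24.8 points.

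Among the same 53 sites, the widest negative differences of 5AZA from saline outside the promoter were at 3 sites of the downstream patch. The site 378 bases downstream (52154208) was at 25.6% and 32.9% in saline, 13.0% and 6.67% in sham, and 7.89% and 4.49% in 5AZA. The site 347 bases downstream (52154239) was at 25.0% and 31.1% in saline, 7.14% and 6.82% in sham, and 6.45% and 3.92% in 5AZA. The site 405 bases downstream (52154181) was at 30.2% and 25.4% in saline, 6.52% and 6.67% in sham, and 6.09% and 4.49% in 5AZA. At these 3 sites both 5AZA libraries were below both saline libraries, and at the latter 2 they were also below both sham libraries.

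No single Hoxa5 site passed a test over the whole genome. edgeR's quasi-likelihood test with Benjamini-Hochberg adjustment over 920122 sites called 0 of the 64 in each comparison, where it called 0.00283% of all sites between saline and sham, 0.00163% between 5AZA and saline and 0.00152% between 5AZA and sham. The smallest adjusted p in that edgeR test was 0.515 for saline against sham, 0.175 for 5AZA against saline and 0.948 for 5AZA against sham. At an unadjusted p under 0.05, 32 of the 64 sites were higher in saline than in sham, where 3.24% of all sites were, and all 32 were among the lower sites. Likewise 33 sites were lower in 5AZA than in saline, where 4.59% of all sites were, and 1 site was higher in 5AZA than in sham, where 1.12% were. limma called 0 of the 64 sites in all 3 comparisons, where it called 0 of all 920122 sites. Fisher's exact test on reads pooled within groups, which leaves out the spread between libraries, called 16 sites between saline and sham, where it called 0.410% of all sites, and 12 between 5AZA and saline, where it called 0.672%. On simulated data for 43052 sites of chromosome 6, edgeR and limma each recovered 0% of changes of 20 points in either comparison with saline. Their silence at single sites does not bear on a change of that size.

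Read counts summed over the sites of 1 kb windows gave a test on larger counts. A read over several sites counts once at each, here and in the runs, stretches and promoters below, so there were fewer distinct reads. The window that holds the start (52154001 to 52155000, 45 sites, 1539 to 3729 such counts per library) was at 30.8% and 35.8% in saline, 21.7% and 18.8% in sham, and 22.6% and 20.0% in 5AZA. Both saline libraries were above the 4 others, and sham and 5AZA overlapped. Its level rose by 13.0 points from sham to saline (33.3% ± 3.55 and 20.3% ± 2.04, SD, n = 2 each), with an adjusted p of 0.0419 in edgeR's quasi-likelihood test over 89813 windows, of which 0.0445% were called higher. It fell by 12.0 points from saline to 5AZA (21.3% ± 1.82, SD, n = 2), with an edgeR adjusted p of 0.0266, where 1.55% of windows were called lower. Between 5AZA and sham the difference was 1.04 points (edgeR adjusted p = 0.825, where 0.00111% of windows were called).

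The rise in this window was not called when any 1 of the 4 saline and sham libraries was left out. The edgeR adjusted p was 0.252 without saline 1, 0.129 without saline 2, 0.0544 without sham 1 and 0.376 without sham 2, with differences of 10.5 to 15.5 points. The fall was not called without saline 1 (edgeR adjusted p = 0.138), saline 2 (0.0994) or 5AZA 2 (0.107). In all, 11 of 19 values under alternative settings missed the threshold for the rise and 8 of 20 for the fall, with the sign of both kept in each. Among those that missed it were limma (adjusted p = 0.395 and 0.155, with 0 windows called in the genome) and edgeR without the sites that stand above their neighbours (14.8 points, adjusted p = 0.361, and -14.0 points, adjusted p = 0.125). On simulated windows limma recovered 0% of changes of 10 and of 20 points, so its miss does not bear on such changes. On a grid shifted by 500 bp and with windows of 500 bp, the window over the downstream part of the start window passed edgeR's test in both comparisons and the one over its upstream part in neither. The downstream one rose by 12.5 points (adjusted p = 0.0356, edgeR) and fell by 11.1 points (0.0258) on the shifted grid, and rose by 13.6 points (0.0477) and fell by 12.3 points (0.0367) with the narrower windows.

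The neighbouring windows of the gene had differences of the same sign, and neither passed. The window from 52153001 to 52154000 (16 sites) was at 28.8% and 33.8% in saline, 21.9% and 21.0% in sham, and 20.9% and 26.2% in 5AZA. Saline was 9.86 points above sham (edgeR adjusted p = 0.173) and 5AZA differed from saline by -7.77 points (edgeR adjusted p = 0.0953). In the window from 52152001 to 52153000, which holds the 3 far sites, the differences were 13.0 points (edgeR adjusted p = 0.387) and -10.7 points (edgeR adjusted p = 0.163).

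Because fixed windows cut across the covered patches, the same test was run on runs of sites no more than 100 bases apart. The downstream patch (52153846 to 52154300, 52 sites) was at 28.8% and 33.9% in saline, 20.2% and 17.5% in sham, and 20.5% and 20.0% in 5AZA. It rose by 12.5 points from sham to saline (edgeR adjusted p = 0.0430, where 0.0150% of 86824 such runs were called higher) and fell by 11.1 points from saline to 5AZA (edgeR adjusted p = 0.0332, where 0.955% were called lower). The upstream patch (52154714 to 52154888, 9 sites, 245 to 461 read counts summed over sites) was at 46.3% and 55.1% in saline, 32.8% and 28.1% in sham, and 37.8% and 34.9% in 5AZA. Its differences of 20.3 and -14.3 points were wider but missed the threshold, with edgeR adjusted p of 0.0932 and 0.0774. For the downstream patch the rise was not called without saline 1 (edgeR adjusted p = 0.193), saline 2 (0.140) or sham 2 (0.339), and the fall was not called without saline 1 (0.151), saline 2 (0.115) or 5AZA 2 (0.116).

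The lower sites were also grouped by their place along the gene. Neighbouring high sites bounded 8 stretches of 57 to 107 bases, each with 1 to 10 lower sites between them. In the stretch of 5 lower sites from 128 to 235 bases upstream, 31.8% and 42.3% of reads were methylated in saline, 14.1% and 8.46% in sham, and 16.9% and 9.85% in 5AZA. In the stretch of 6 lower sites from 363 to 420 bases downstream, the levels were 23.8% and 27.4% in saline, 7.09% and 3.66% in sham, and 6.49% and 4.94% in 5AZA. The narrowest difference between saline and sham was in the stretch of 7 lower sites from 567 to 633 bases downstream. The levels there were 13.5% and 25.2% in saline, 12.4% and 11.8% in sham, and 6.35% and 8.28% in 5AZA. In all 8 stretches both saline libraries were above both sham libraries and both 5AZA libraries were below both saline libraries, with differences of 7.21 to 25.8 points and of -23.7 to -8.67 points. In none were both 5AZA libraries above both sham libraries. The stretches regroup lower sites already counted above, from the same 6 libraries, and are not repeats of the result. Such stretches were not counted over the genome. Saline 2 was the highest of the 6 libraries in all 8 stretches, and sham 2 was the lowest in 4.

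**Figure D4:**
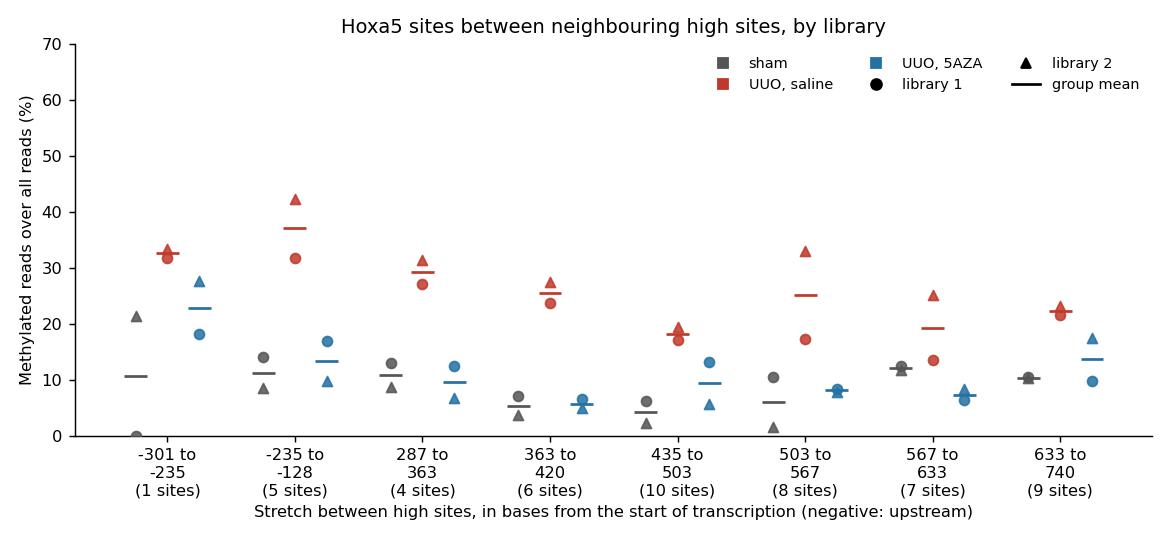
Share of methylated reads (%) at the lower Hoxa5 sites of 8 stretches between neighbouring high sites, in order from upstream to downstream; circles are library 1 and triangles library 2, and horizontal lines are group means. Both saline libraries lie above the 4 other libraries in all 8 stretches, and in none are both 5AZA libraries above both sham libraries.

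The start window was then set beside windows of like level. Of 5438 windows with at least 10 sites and a mean level of 20 to 40%, 23 (0.423%) had a larger difference between saline and sham, and the median window differed by 1.34 points. Likewise 15 (0.276%) had a lower signed difference of 5AZA from saline, with a median of -0.136 points. Over all 89813 windows, of any level and number of sites, the shares were higher: 1859 (2.07%) had a larger difference between saline and sham, and 2607 (2.90%) a lower one of 5AZA from saline. For 5AZA against sham the difference at Hoxa5, 1.04 points, was close to the median of the 5438 windows of like level, 1.21 points. The median over all 89813 windows was -1.12 points. Hoxa5 was named in the study's title, so its place in these orders is a description of these 6 libraries.

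**Figure D5:**
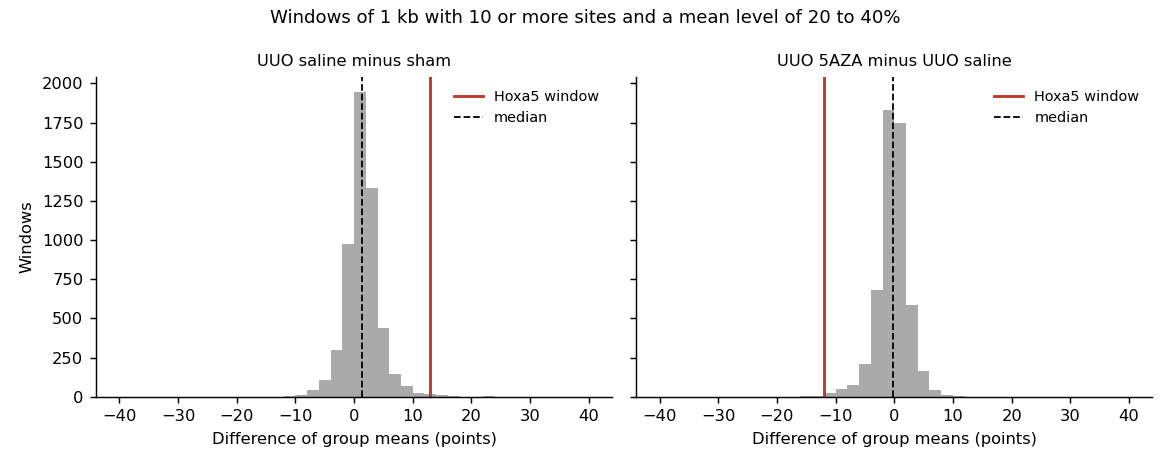
Number of 1 kb windows (vertical axis) by their difference of group means in percentage points, for the 5438 windows with 10 or more sites and a mean level of 20 to 40%. The red line is the window with the Hoxa5 start, at 13.0 points for saline minus sham (left) and -12.0 for 5AZA minus saline (right), and the dashed line is the median of the windows.

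Among the promoters that could be placed, Hoxa5 had the widest difference between saline and sham. RefSeq promoters of 300 bases could be placed on the measured sites by their CpG spacing in 6474 cases, each with at least 6 measured sites. The Hoxa5 promoter (7 sites, 205 to 433 read counts summed over sites) was at 44.6% and 55.1% in saline, 32.3% and 26.2% in sham, and 36.3% and 31.2% in 5AZA. Its sites include both measured CCGG sites, which are among the high sites. Its difference of 20.6 points between saline and sham was exceeded by 0 of the other placed promoters, and the median over all of them was 1.07 points. For 5AZA against saline, 1 placed promoter had a lower signed difference than the -16.1 points of Hoxa5. Both orders are over promoters of any level, and no set of like level was compared. Hoxa5 was named in the study's title, so its place in them is a description of these 6 libraries. In edgeR's test over these promoters the adjusted p of Hoxa5 was 0.405 and 0.721 (edgeR unadjusted p = 0.000366 and 0.00285). There 0 promoters of 6474 passed in any comparison. An unadjusted p under 0.05 was found at 504 between saline and sham, 263 between 5AZA and saline and 344 between 5AZA and sham. On simulated data, with 100 promoters changed per size, this test recovered 75% of 10-point and 100% of 20-point changes between saline and sham. Between 5AZA and saline it recovered 65% and 99%. All simulated promoters had the same spread between libraries (dispersion), set above the 0.00314 fitted to the data. These shares may therefore differ from those in the data. Why the Hoxa5 promoter missed the threshold was not tested.

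Promoters of 33 genes were looked for: the 11 genes of the Hoxa cluster and 22 of the Notch pathway, the signalling route that the series title sets after HOXA5. Besides Hoxa5, 10 genes could be placed, and 0 of their 11 promoters passed edgeR's test in either direction (2 had an unadjusted p under 0.05 between saline and sham, Notch2 and Hey2). Their differences between saline and sham ran from -0.706 to 4.84 points with a median of 1.07, the same as over all placed promoters. Those of 5AZA from saline ran from -3.05 to 2.72 points with a median of -0.241, against -0.0776 over all placed promoters. Hoxa6, the next gene of the cluster, had 18.7% in saline, 17.6% in sham and 17.3% in 5AZA over 13 promoter sites. Notch2, a Notch receptor, had the largest of these differences, with 17.6% and 15.9% in saline, 14.1% and 9.73% in sham, and 14.0% and 17.5% in 5AZA. Hey2, a transcriptional repressor switched on by Notch, was at 12.0% in saline, 9.03% in sham and 11.7% in 5AZA. Dll1 and Dll4, Notch ligands, differed between saline and sham by 0.631 and 0.774 points. Jag1 was among the genes whose promoter could not be placed.

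The windows most like the one at the Hoxa5 start were found among 20999 windows of at least 10 sites, by the root mean square difference in level over the 6 libraries. The closest, on chromosome 16 (92606001 to 92607000, 22 sites, 1.95 points), was at 33.6% and 36.5% in saline, 21.7% and 16.9% in sham, and 24.1% and 22.9% in 5AZA. Its differences were 15.8 points for saline minus sham and -11.5 points for 5AZA minus saline. The next was on chromosome 15 (89354001 to 89355000, 39 sites, 2.00 points), with differences of 9.92 and -9.24 points. The third, on chromosome 13 (18310001 to 18311000, 10 sites, 2.58 points), differed by 14.3 and -9.42 points. These windows were chosen for their levels in all 6 libraries, so their order of groups follows from the choice and is not tested.

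The 14 positions of the span left out for depth were sparse and unevenly read. Pooled over positions, with a read counted at each position it covers, 59.2% of 174 reads were methylated in saline, 48.5% of 200 in sham and 43.0% of 230 in 5AZA. Saline 1, with 53 such reads, was at 45.3% and sham 1 at 50.7%, but not over the same positions. Saline 1 had 0 reads at 52152543, 52152569, 52152587, 52152782 and 52152793, where sham 1 had 24 to 26 reads each. The order of the libraries can therefore not be read from these pooled values.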

How the data were processed

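Kidney DNA methylation was analysed from 1 deposited file per bisulfite library. Bowtie and mm9 are named, without a version, per the submitters' processing notes; how reads were trimmed and called is not given in the sources used here. Without a header to name them, the columns were read from their values: the authors deposited for each CpG site the counts of covering and of methylated reads, and a fraction that equals their ratio in every row. Covering reads, counted at each site they cover, came to 37728517 to 76730132 per library over all sites, with no molecular identifiers described.

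Levels are percentages of methylated reads. Sites with at least 10 reads in all 6 libraries were used. Methylated and unmethylated counts were tested per site and summed over 1000 bp windows, over runs of sites with gaps of at most 100 bp (at least 3 sites each) and over placed promoters. edgeR 4.0.16 (R 4.3.3) was fitted over the whole genome with an intercept per library, group effects on methylated counts and 1 common dispersion for the 6 libraries, with Benjamini-Hochberg adjustment. Sham 2 counted as sham, as its treatment is labelled. On simulated data with 100 windows changed per size, 29% of changes of 10 points and 84% of changes of 20 points were recovered between saline and sham among 89813 windows, and 33% and 90% between 5AZA and saline. All simulated windows had the same dispersion, so these shares may differ from those in the data.

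Named sites are the 5 with the largest absolute difference in each comparison with saline, among sites with at least 20 reads in every library. The sites, gene lists and tests were chosen with earlier results of these data known. RefSeq promoters with at least 6 measured sites were placed where the CpG spacing fitted 1 place on the chromosome, and 236 that lay out of order with their neighbours were dropped. Alternatives were coverage minimums of 5 and 20, other windows and gaps, limma 3.58.1, Fisher's exact test, fewer libraries, a replicate block, and leaving out candidate fragment-end or the most deeply covered 0.1% of sites. A candidate fragment end had a coverage that matched, within 5%, the summed coverage of the sites beside it, or a level of 30% or more in a 1000 bp window with a median under 5%. Leaving out sites that stand at least 30 points above their neighbours within 100 bp, and windows under a mean level of 20%, were added after the data were seen.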

Additional observations from a re-analysis of the deposited data

How the results depend on the processing

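The differences of saline from sham and of 5AZA from saline kept their sign in every alternative run for Hoxa5. Calls were less steady, and the cause was not tested. With 2 libraries per group the fits pool the spread, and a group's lone library is taken to vary as the other groups do.

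For saline minus sham in the start window (13.0 points), edgeR did not call the rise with a coverage minimum of 20 (12.6 points, adjusted p = 0.0555), in its upstream part on a grid shifted by 500 bp (20.3 points, 0.0923) or with windows of 500 bp (20.3 points, 0.104), over windows averaging 20% or more (13.0 points, 0.0751), without candidate fragment-end sites (12.6 points, 0.468) or without sites standing above their neighbours (14.8 points, 0.361), nor did limma (13.0 points, 0.395). Leaving out 1 library gave 10.5 to 15.5 points. For 5AZA minus saline there (-12.0 points) the fall was not called in the upstream part on the shifted grid (-14.3 points, 0.0707) or with windows of 500 bp (-14.3 points, 0.0812; the downstream part kept both calls), with limma (-12.0 points, 0.155), without candidate fragment-end sites (-12.0 points, 0.198) or without sites standing above their neighbours (-14.0 points, 0.125), and leaving out 1 library gave -14.5 to -9.46 points. In the downstream run of 52 sites, saline minus sham lost its call with gaps of at most 50 bp (12.5 points, 0.0928), limma (12.5 points, 0.383), an average of 20% or more (12.5 points, 0.0986), and without fragment-end (12.6 points, 0.467) or standing-out sites (14.2 points, 0.332), and ran from 9.98 to 15.1 points without 1 library. There 5AZA minus saline lost its call with gaps of at most 50 bp (-11.1 points, 0.0662), limma (-11.1 points, 0.157), and without fragment-end (-11.2 points, 0.222) or standing-out sites (-12.9 points, 0.147), and ran from -13.7 to -8.57 points without 1 library.

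Fisher's test on pooled reads added calls: 13.0 and 9.86 points for saline minus sham and -10.7 and -7.77 points for 5AZA minus saline in the 2 neighbouring windows, 20.3 and -14.3 points in the upstream run, and 16 and 12 of the 64 sites. For 5AZA minus saline, 1 site was called with only the 4 libraries of both groups, and 0 to 1 when 1 library was left out. The sign of 5AZA minus sham turned in the 3 windows without 1 library, where it ran from -3.43 to 7.92, from -0.601 to 4.77 and from -0.401 to 2.48 points.

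Nothing in the labels pairs saline and 5AZA libraries of the same number (correlation of their differences between library 1 and 2, 0.0762 over windows). With the number as a replicate block in the 4 libraries, 5AZA minus saline was also called in the window next to the start (-7.77 points, adjusted p = 0.0164) and in the upstream run (-14.3 points, 0.0317), with p of 0.000349 in the start window and 0.000393 in the downstream run, and 6856 windows and 5529 runs called genome-wide.

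Between saline and sham, 45 windows of the genome were called, against 8663 by Fisher's test, 0 by limma, 2 over windows averaging 20% or more, 28 with windows of 500 bp, 72 with 4 libraries, 0 without fragment-end sites, 1 without standing-out sites and 0 to 72 without 1 library. For 5AZA and saline, 1396 windows were called, against 23348, 0, 1416, 413, 173, 0, 0 and 0 to 1180 in that order, and 850 with a coverage minimum of 20. Runs called were 13 and 831, against 7923 and 19464 by Fisher's test, 0 and 0 by limma, 28 and 990 with a coverage minimum of 5, 16 and 310 with 20, 86 and 2573 with gaps of up to 200 bp, 3 and 0 with 50 bp, 0 and 411 at 20% or more, 57 and 243 with 4 libraries, 0 and 0 without fragment-end or without standing-out sites, and 0 to 60 and 0 to 615 without 1 library. Sites called were 26 and 15, against 3776 and 6185 by Fisher's test, 0 and 0 by limma, 11 and 74 with 4 libraries, and 3 to 208 and 2 to 75 without 1 library.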
